A study of Mus musculus with 6 samples.

Results

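The trophoblast factors examined here are 8 genes that are known to build or mark the first placental lineage of the mouse embryo: the receptor Fgfr2 and the transcription factors Tfap2c, Cdx2, Elf5, Eomes, Gata3, Gata2 and Hand1. They were taken by symbol, not by a cut on their values, from the gene table of the series, where each has 1 row among 19330 genes. Earlier results of these data were known when they were chosen. RNA was sequenced from 6 mouse libraries, to compare induced pluripotent stem cells (iPSC) associated with palmitoylcarnitine (PC), a long-chain acylcarnitine, with normal iPSC and with embryonic stem cells (ESC). The groups were 2 control iPSC lines, numbered 3 and 7, 2 PC iPSC lines, numbered 5 and 13, 1 ESC library titled B6, and 1 library of mouse embryonic fibroblasts (MEF). ESC and iPSC shared a serum medium with leukemia inhibitory factor on feeders of mitomycin C-treated MEF, so that some fibroblast RNA can be present in all 5 of these libraries, while MEF grew in serum medium alone. The strain or line named B6, the reprogramming method, and the PC dose and time were not given in the sources used here. Each iPSC line is 1 line with 1 library, and ESC and MEF have no replicate. Nothing says that the libraries came from separate cultures, so each p-value below reflects the spread of these libraries alone, which may be technical.

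Trophectoderm is the outer layer of the blastocyst and the source of the trophoblast of the placenta. In outer cells of the mouse embryo low Hippo signalling lets the DNA-binding factor Tead4 and its partner Yap1 turn on Cdx2 and Gata3, and Cdx2 opposes the pluripotency factor Pou5f1. Fgf4 made by the inner cell mass acts through Fgfr2 on the neighbouring trophectoderm, and the same signal sustains trophoblast stem cells, in which Cdx2, Eomes, Elf5 and Tfap2c hold each other active. Mouse ESC normally keep this network silent, although Tfap2c is also expressed in pluripotent and germ cells.

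All 12 pluripotency markers were at 1 RPKM or more in the ESC library and in each of the 4 iPSC lines. RPKM are reads scaled by gene length and by the assigned reads of the library, so they can be set side by side across genes. The MEF library held all 13 fibroblast markers at 1 RPKM or more, but it also held Pou5f1 at 158 RPKM, Sox2 at 88.2 and Klf4 at 124, which its label does not account for. Nanog was at 0.0482 RPKM there, and Esrrb, Zfp42, Prdm14, Dppa3 and Tdgf1 had no read. Summed over the 13 fibroblast markers, RPKM were 326 in ESC, between 603 and 1366 in the iPSC lines and 6239 in MEF. Over 1047 genes of chromosome 11 with a mean of at least 1 RPKM, PC iPSC 5 stood at a median of 1.35 times the mean of the other 3 iPSC lines. ESC stood at 1.29 times the mean of the same 3 lines. Each of those lines, set against the others without PC iPSC 5, stood at 0.985 to 1.02 times. Over the other autosomes the median log2 difference was -0.08 in ESC and 0.007 in PC iPSC 5. Assigned reads ran from 26.51 M to 27.99 M per library, and a count of 0 allows up to 3 reads, or 0.107 to 0.113 CPM (reads scaled to the library total).

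Of the 8 members, Cdx2 had the lowest signal over the 6 libraries and Fgfr2 had the largest called difference from ESC. Gata3 is turned on by Tead4 in the embryo. The upstream DNA of these 3 members is shown. Each is the 250 bases before a start site that the RefSeq table of GRCm38 gives, read 5′ to 3′ along the gene's strand. Capitals mark matches, on either strand, to ATGCAAAT (the octamer bound by Pou5f1), GATAA (GATA factors), GGAATG (TEAD factors), GCCNNNGGC (AP-2 factors, the family of Tfap2c) and TATAAA (the TATA box).
Cdx2 chr5:147307250-147307499, minus strand: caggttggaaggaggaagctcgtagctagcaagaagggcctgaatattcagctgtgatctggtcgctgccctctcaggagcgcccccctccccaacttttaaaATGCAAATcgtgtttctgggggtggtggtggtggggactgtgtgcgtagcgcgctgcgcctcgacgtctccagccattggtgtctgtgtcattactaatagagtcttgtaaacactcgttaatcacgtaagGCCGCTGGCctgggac
Fgfr2 chr7:130266809-130267058, minus strand: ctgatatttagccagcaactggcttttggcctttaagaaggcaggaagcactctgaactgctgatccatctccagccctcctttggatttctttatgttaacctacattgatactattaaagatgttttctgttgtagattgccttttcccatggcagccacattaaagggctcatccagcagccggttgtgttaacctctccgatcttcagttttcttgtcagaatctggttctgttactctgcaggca
Gata3 chr2:9878601-9878850, minus strand: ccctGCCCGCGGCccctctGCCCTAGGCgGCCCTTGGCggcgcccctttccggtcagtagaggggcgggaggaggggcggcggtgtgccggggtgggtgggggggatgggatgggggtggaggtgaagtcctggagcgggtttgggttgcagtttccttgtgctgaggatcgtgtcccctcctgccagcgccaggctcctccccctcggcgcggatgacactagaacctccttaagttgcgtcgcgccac
The Cdx2 window held 1 octamer, which began 147 bases before the start site, and 1 AP-2 match, 16 bases before it. The octamer is in 1.60% of the 32851 windows of that length in the table, and the AP-2 letters are in 13.7%. The Gata3 window held 3 AP-2 matches, at 246, 231 and 221 bases before a start site that lies inside the annotated gene. The Fgfr2 window held none of the 5 motifs, and these letters say nothing of sites elsewhere. The windows also differed in CpG pairs, with 2 in Fgfr2, 13 in Cdx2 and 19 in Gata3, against a median of 6 over all windows. No 2 matches overlapped within a window. GATAA is in 22.6% of all windows, GGAATG in 12.6% and TATAAA in 12.4%. The table matched 6 of the 8 members, and Tfap2c and Hand1 had no entry.

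Fgfr2, the receptor through which Fgf4 acts on trophectoderm (chromosome 7, 130162451 to 130266808, minus strand), was far lower in the iPSC lines than in either other cell type. Its level was 11.3 RPKM in MEF and 5.72 RPKM in ESC. Control iPSC 3 and 7 had 0.783 and 0.751 RPKM, and the PC lines 5 and 13 had 1.03 and 0.592 RPKM. All 4 iPSC lines lay below ESC, and ESC lay below MEF, with counting intervals apart. Among the iPSC lines each interval overlapped the next in order. The iPSC mean, 0.789 ± 0.181 RPKM (SD, n = 4), was 13.8% of ESC and 6.98% of MEF. By edgeR's quasi-likelihood test with Benjamini-Hochberg adjustment over 16435 genes, the log2 fold change from ESC was -2.90 (SE 0.24, adjusted p = 0.00611) and that from MEF was -3.82 (SE 0.24, adjusted p = 2.57e-05). Reads covered 69.2% to 85.4% of its length in the iPSC lines, against 89.1% in ESC. Counts per gene do not separate the splice forms of this receptor, the epithelial form with exon IIIb and the mesenchymal form with exon IIIc.

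The other FGF receptors showed other patterns. Fgfr1 was at 28.0 RPKM in ESC and between 23.8 and 28.3 RPKM in the iPSC lines, so that the groups overlapped, and it was highest in MEF at 85.6 RPKM. Fgfr4 was at 1.62 RPKM in ESC and 1.09 to 1.44 RPKM in iPSC, and Fgfr3 was below 1 RPKM in all 5 pluripotent libraries. Fgf4, the ligand from pluripotent cells, was at 182 RPKM in ESC and 84.3 to 103 RPKM in the iPSC lines (log2 fold change -1.0, SE 0.15, adjusted p = 0.0171). Of 14 tested FGF ligands and feedback genes, 1 rose and 2 fell against ESC, where 4.71% of all genes rose and 5.71% fell. The list median was 0.52 on the log2 scale against 0.03 for all genes. The second that fell was the ligand Fgf17 (-2.61, SE 0.50, adjusted p = 0.0287), and the one that rose was Spry2, a feedback inhibitor of the pathway (1.16, SE 0.22, adjusted p = 0.0267). Esrp1, an RNA-binding protein known to favour the epithelial form of Fgfr2, was at 12.3 RPKM in ESC, 0.668 to 1.23 RPKM in the iPSC lines and had no read in MEF (log2 fold change from ESC -3.80, SE 0.25, adjusted p = 0.00305).

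Tfap2c, the AP-2 factor of trophoblast that pluripotent cells also use (chromosome 2, 172545678 to 172558622, plus strand), had the highest level of the 8 in every library but MEF. It was at 60.7 RPKM in ESC, 12.2 and 8.98 RPKM in control iPSC 3 and 7, 19.1 and 8.75 RPKM in PC iPSC 5 and 13, and 0.351 RPKM in MEF. ESC was above all 4 iPSC lines and MEF below them all, with intervals apart. PC iPSC 5 was above the other 3 lines, whose intervals overlapped only for control iPSC 7 and PC iPSC 13. The iPSC mean of 12.3 ± 4.83 RPKM (SD, n = 4) was 20.2% of ESC and 35 times MEF. The log2 fold changes were -2.37 against ESC (SE 0.33, adjusted p = 0.0150) and 5.13 against MEF (SE 0.59, adjusted p = 3.28e-04). Tfap2c made up 83.0% of the summed RPKM of the 8 genes in ESC, 66.4% to 74.3% in the iPSC lines and 1.46% in MEF. Its relatives Tfap2a and Tfap2b were highest in MEF, at 4.41 and 7.75 RPKM. Tfap2a was 0.164 RPKM in ESC and 0.604 to 0.673 RPKM in iPSC (log2 fold change 1.93, SE 0.40, adjusted p = 0.0334). Tfap2b was 0.0348 RPKM in ESC and 0.0410 to 0.0734 RPKM in iPSC, and was not called. The part of fibroblast RNA in these levels was not tested.

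**Figure D1:**
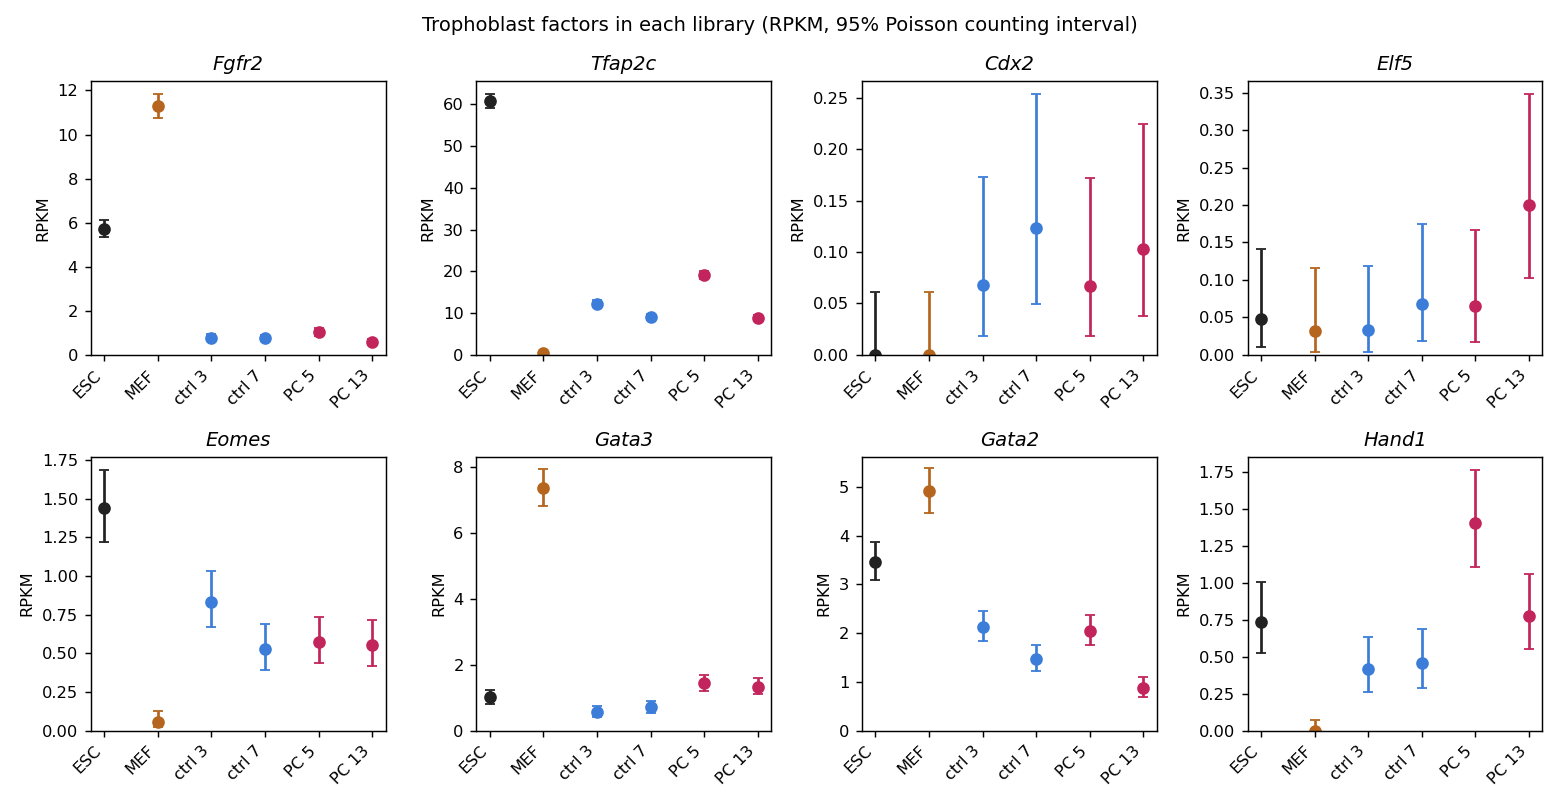
Level of each of the 8 trophoblast factors in RPKM (vertical axes start at 0 and differ between panels) in the ESC, MEF, control iPSC 3 and 7 and PC iPSC 5 and 13 libraries, with 95% Poisson intervals on the reads. Fgfr2 and Tfap2c lie well below ESC in all 4 iPSC lines, Gata3 and Hand1 are higher in both PC lines than in both control lines, and Cdx2 and Elf5 rest on 0 to 12 reads.

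Cdx2 and Elf5, the factors most specific to trophoblast in the early mouse embryo, were close to the limit of detection. Cdx2, the homeobox factor that sets up trophectoderm (chromosome 5, 147300900 to 147307249, minus strand), had 0 reads in ESC and 0 in MEF. It had 4 and 7 reads in control iPSC 3 and 7, and 4 and 6 in PC iPSC 5 and 13, or 0.0673 to 0.123 RPKM. All 4 iPSC lines had reads, over 11.3% to 34.5% of the gene's length, but the counting intervals of all 6 libraries overlapped in order. That overlap does not compare ESC or MEF with the 4 iPSC lines together, so it does not settle whether they differ. The gene did not pass the filter on low counts and has no test. Elf5, an ETS factor that keeps trophoblast stem cells in their fate and whose promoter is methylated in ESC (chromosome 2, 103412098 to 103450989, plus strand), had 3 reads in ESC, 2 in MEF, 2 and 4 in the control lines, and 4 and 12 in the PC lines 5 and 13. Line 13 alone carried it past the filter, and its test has a wide interval (log2 fold change from ESC 0.69, 95% interval -2.43 to 3.81, adjusted p = 0.766). Even counts made up 62.4% to 67.5% of values from 1 to 20 reads, against 48.8% to 50.6% above 20 reads, so single reads here may not be independent molecules.

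Each of these factors had 1 abundant relative in the pluripotent libraries. Cdx1, the Cdx factor known from the posterior body axis and gut, was at 2.97 RPKM in ESC, 29.5 and 33.4 RPKM in control iPSC 3 and 7, 15.4 and 32.6 RPKM in PC iPSC 5 and 13, and had no read in MEF. All iPSC lines were above ESC, with PC iPSC 5 the lowest of them (log2 fold change 3.17, SE 0.49, adjusted p = 0.0184). Cdx4 stayed at or below 0.181 RPKM in all 6 libraries, and Ehf, another relative of Elf5, at or below 0.0653 RPKM in the pluripotent ones. Elf3, an epithelial relative of Elf5, was at 49.3 RPKM in ESC, 37.6 to 60.5 RPKM in iPSC and 5.75 RPKM in MEF, so that ESC lay within the iPSC range. Of the 14 tested relatives of the 8 genes, 3 rose against ESC (Cdx1, Tfap2a and Hand2) and none fell. Their median log2 fold change was 0.42, and 4.71% of all genes tested were called higher.

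**Figure D2:**
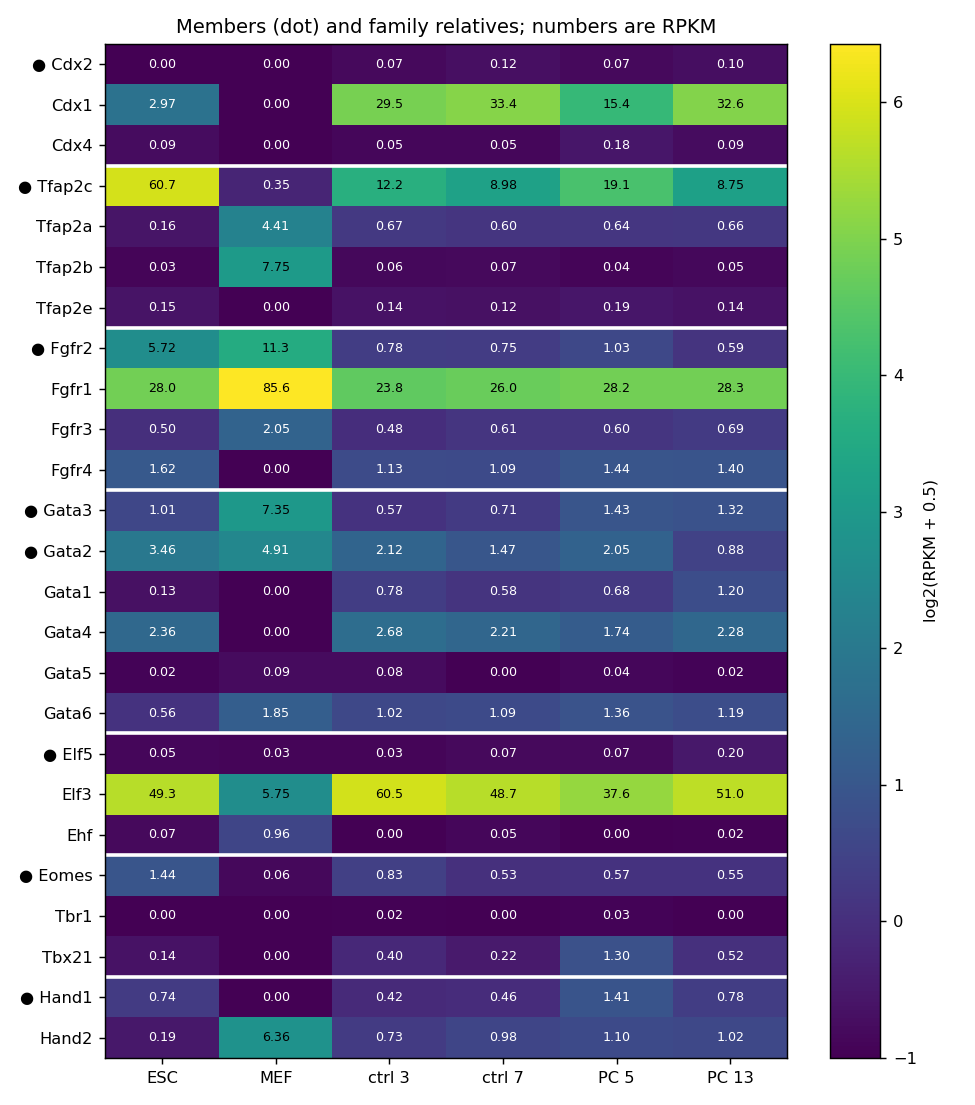
RPKM of the 8 trophoblast factors (marked by a dot) and their family relatives, 1 row per gene and 1 column per library; colour is log2(RPKM + 0.5) and the printed number is RPKM. Cdx1 stands between 15.4 and 33.4 in the iPSC lines while Cdx2 is at most 0.123, Fgfr1 stays between 23.8 and 28.3 while Fgfr2 is at most 1.03, and Elf3 is at 37.6 or more in the pluripotent libraries while Elf5 is at most 0.199.

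Eomes, a T-box factor needed for trophoblast stem cells and also used in early mesendoderm (chromosome 9, 118478186 to 118486132, plus strand), was at 1.44 RPKM in ESC, 0.835 and 0.526 RPKM in control iPSC 3 and 7, 0.571 and 0.553 RPKM in PC iPSC 5 and 13, and 0.0575 RPKM in MEF. Every iPSC line lay between ESC and MEF. The log2 fold change against ESC was -1.26 (SE 0.38) and did not pass the test (adjusted p = 0.0833), while that against MEF was 3.42 (SE 0.61, adjusted p = 0.00231). MEF had 6 reads in this gene. Of 7 tested markers of mesendoderm and endoderm, none passed the test against ESC, where 10.4% of all genes did. The median log2 fold change of these markers was 0.85 against 0.03 for all genes, and 5 of the 7 were positive. An antisense gene, Gm33460, overlaps the end of Eomes, and its reads cannot be told apart from those of Eomes where strand is not used.

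Gata3 and Gata2, zinc-finger factors that turn on trophoblast genes and are also used in blood and mesenchyme, were highest in MEF. Gata3 (chromosome 2, 9857078 to 9887953, minus strand) was at 7.35 RPKM in MEF, 1.01 RPKM in ESC, 0.567 and 0.707 RPKM in control iPSC 3 and 7, and 1.43 and 1.32 RPKM in PC iPSC 5 and 13. The ESC value fell between the control and the PC lines. Against ESC the log2 fold change was -0.15 (95% interval -0.84 to 0.53, adjusted p = 0.764), and against MEF it was -2.95 (SE 0.24, adjusted p = 7.18e-05). Gata2 (chromosome 6, 88193891 to 88207032, plus strand) was at 4.91 RPKM in MEF, 3.46 RPKM in ESC, 2.12 and 1.47 RPKM in the control lines, and 2.05 and 0.882 RPKM in PC iPSC 5 and 13. All 4 iPSC lines were below ESC, but the difference did not pass the test (log2 fold change -1.14, SE 0.41, adjusted p = 0.124), whereas that from MEF did (-1.58, SE 0.40, adjusted p = 0.0112). Over the alternatives tried, the Gata2 log2 fold change from ESC ran from -1.51 to -0.91. Whether it passed the test depended on the lines kept, and a fit without 1 line leaves a single line in 1 group. Of 3 annotated genes that overlap Gata3, the antisense Gm13256 and the same-strand 9230102O04Rik have no row in the table, and their reads cannot be told apart from those of Gata3 without strand. The third, 4930412O13Rik, was at 0.0362 RPKM or less. In log2(RPKM + 0.1) limma gave an adjusted p of 0.0557 for Gata2 against MEF.

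Hand1, a basic helix-loop-helix factor of trophoblast giant cells (chromosome 11, 57828713 to 57832147, minus strand), was at 0.736 RPKM in ESC, 0.420 and 0.457 RPKM in control iPSC 3 and 7, and 1.41 and 0.776 RPKM in PC iPSC 5 and 13. It had no read in MEF. Against the 3-read limit the iPSC mean was at least 13.5-fold higher than MEF (adjusted p = 0.00208). ESC lay between the control and the PC lines, and the log2 fold change from it was -0.13 (95% interval -1.43 to 1.17, adjusted p = 0.908). Hand1 lies on the chromosome whose genes were higher as a whole in PC iPSC 5, where its own level was 2.55 times the mean of the other 3 lines. The part of that chromosome in the Hand1 level was not tested. Its relative Hand2 was highest in MEF, at 6.36 RPKM, and rose from 0.192 RPKM in ESC to between 0.729 and 1.10 RPKM in iPSC (log2 fold change 2.25, SE 0.46, adjusted p = 0.0314).

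Counted together, 2 of the 7 members that passed the filter were called between iPSC and ESC, Fgfr2 and Tfap2c, both lower. Of all genes tested, 10.4% were called in this comparison and 5.71% were called lower. Limma on log2(RPKM + 0.5) gave adjusted p of 0.0679 for Fgfr2 and 0.0849 for Tfap2c, at fold changes of -2.28 and -2.33, and so called neither. On that scale only 3 of 16435 genes were called, and none of the list genes named in the text as rising or falling against ESC, Fgf4, Esrp1 and Cdx1 among them, was called there. Between iPSC and MEF 6 members were called, Tfap2c, Eomes and Hand1 higher and Fgfr2, Gata3 and Gata2 lower, where 68.1% of all genes were called, 36.5% higher and 31.6% lower. Among the tested members all 4 iPSC lines lay on 1 side of ESC, in RPKM, for Fgfr2, Tfap2c, Eomes and Gata2, each time below it. Untested Cdx2 had all 4 lines above ESC, on 4 to 7 reads against 0. Of all genes, 66.5% had the 4 lines on 1 side of ESC and 29.3% had them below it. The 6 members called against MEF had all 4 lines on 1 side of it, as did 89% of all genes. ESC and MEF were set side by side without a test, and 4 members differed by more than 2-fold: Tfap2c, Eomes and Hand1 were higher in ESC and Gata3 in MEF, where 59.1% of all genes passed 2-fold, 32.1% higher in ESC and 27% in MEF.

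**Figure D3:**
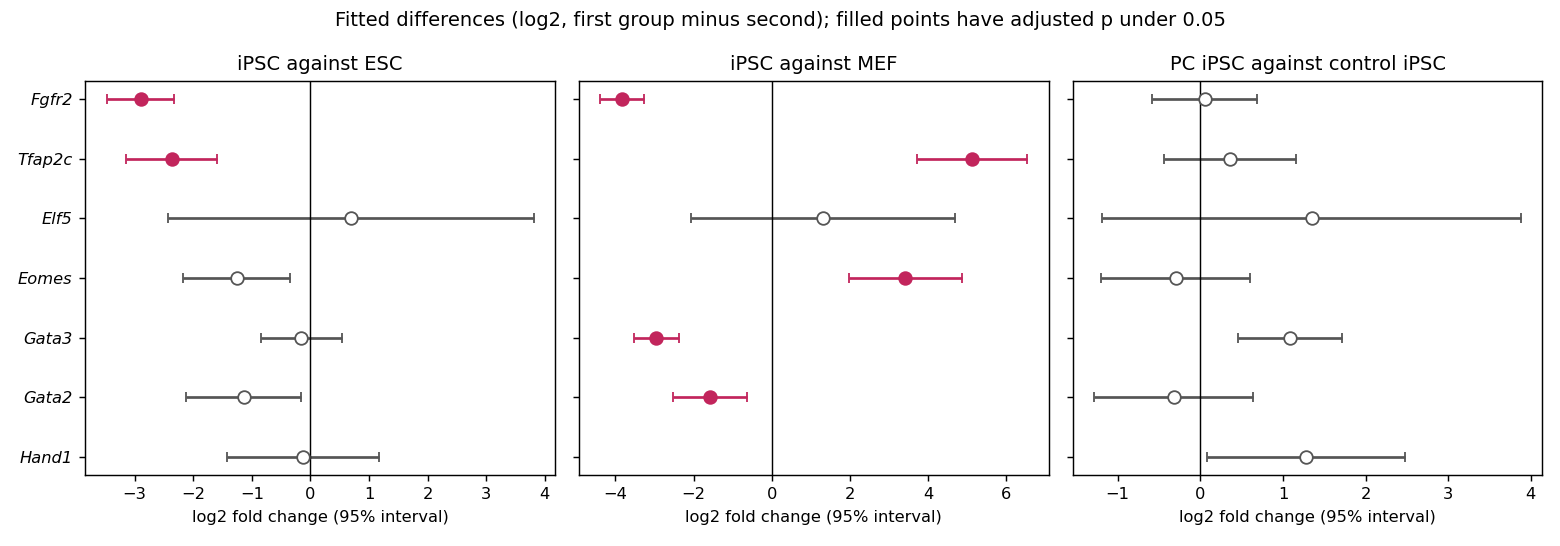
Fitted log2 fold changes of the 7 members that passed the filter (horizontal axes, with 95% intervals) for the mean of the 4 iPSC lines minus ESC, the same minus MEF, and PC minus control iPSC; filled points have an adjusted p under 0.05. Fgfr2 is lower in iPSC on both sides, Tfap2c lies between ESC and MEF, and no point is filled for PC against control; Hand1 against MEF is left out because MEF had no read.

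Fgfr2, Gata3 and Gata2 are the members that were highest in the MEF library, so their level in each library is set beside the fibroblast markers there. As a percent of the MEF library, the 13 markers had a median of 4.10% in ESC and 8.17%, 11.3%, 11.1% and 9.64% in control iPSC 3 and 7 and PC iPSC 5 and 13. Against ESC, 8 of the 13 markers rose in iPSC and none fell, where 4.71% of all genes rose. Fgfr2 stood at 50.6% of MEF in ESC, above all 13 markers, but at 5.24% to 9.11% in the iPSC lines, below the marker median in each of them. Gata3 was near that median in the control lines, at 7.72% and 9.61%, and above it in the PC lines, at 19.4% and 18.0%. Gata2 was above it in every library, at 70.5% in ESC and 17.9% to 43.2% in iPSC. The part of fibroblast RNA in these levels was not tested. Of 10 blood and endothelial markers, 6 were at 1 RPKM or more in the MEF library. The highest were Spi1 at 7.88 RPKM, Lmo2 at 7.66, Ptprc at 3.52 and Runx1 at 3.41. Tal1, Kdr and the endothelial Cdh5 were at 0.311, 0.327 and 0.223 RPKM, and Gata1 had no read. Of 10 such markers, 8 were called lower in iPSC than in MEF and 1 higher. Of all genes, 31.6% were called lower and 36.5% higher. Which cells of the MEF library carried Fgfr2, Gata3 and Gata2 was not tested. In bulk RNA, fewer cells of a type and less RNA per cell cannot be told apart.

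**Figure D4:**
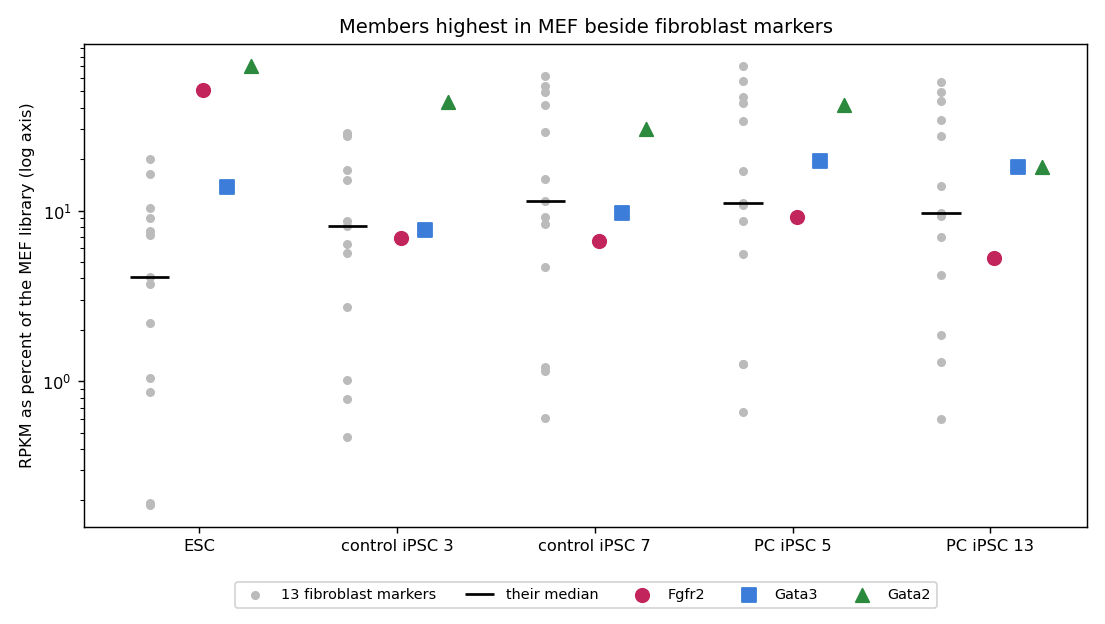
RPKM of Fgfr2, Gata3 and Gata2 and of 13 fibroblast markers (grey points, with their median as a bar) as a percent of the MEF library, on a log axis, in the ESC and the 4 iPSC libraries. Fgfr2 falls from 50.6% in ESC, above every marker, to between 5.24% and 9.11% in iPSC, below the marker median in each line.

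Between PC and control iPSC no member passed the test, and 0% of the 16435 genes did by edgeR. At an unadjusted p under 0.05 edgeR had 385 genes, or 2.34%, and DESeq2 had 248, or 1.51%, with 0 after adjustment by either. For Fgfr2 the log2 difference was 0.05, with a 95% interval of -0.59 to 0.69, and for Tfap2c it was 0.36 (-0.44 to 1.16). Eomes stood at -0.30 (-1.20 to 0.60) and Gata2 at -0.32 (-1.29 to 0.64). Gata3 and Hand1 were the tested members with both PC lines above both control lines, as were 16.2% of all genes, while groups did not overlap in either direction for 31.4%. The Gata3 difference was 1.09 (95% interval 0.46 to 1.71, adjusted p = 0.963), and it ranged from 0.72 to 1.26 over the alternatives tried. That of Hand1 was 1.28 (95% interval 0.09 to 2.48, adjusted p = 0.963), and without PC iPSC 5 it was 0.83. All 13 fibroblast markers had a positive log2 difference between PC and control iPSC, with a median of 0.36 against 0.00 for all genes. None was called, and control iPSC 3 was the lowest of the iPSC lines for all 13. Both PC lines lay above both control lines for 3 of the 13, and their summed RPKM were 603 and 1237 in the control lines and 1366 and 1133 in the PC lines. Gata3 is itself high in MEF, whereas Hand1 had no read there. The part of fibroblast RNA in the Gata3 difference was not tested.

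A wider list of trophoblast and placenta genes was compared between iPSC and ESC. Of 21 tested genes none rose and 4 fell, where 5.71% of all genes fell, and the list median was -1.07 on the log2 scale against 0.03. Wnt7b, a signalling ligand of the placenta, fell by 3.20 (SE 0.47, adjusted p = 0.0168), from 4.43 RPKM in ESC to between 0.301 and 1.20 RPKM. Bhlhe40, a basic helix-loop-helix repressor, fell by 1.86 (SE 0.17, adjusted p = 0.00611), Cdh3, the placental cadherin, by 1.30 (SE 0.30, adjusted p = 0.0423), and Phlda2, an imprinted regulator of placental growth, by 1.07 (SE 0.22, adjusted p = 0.0326). The calls for Cdh3 and Phlda2 were also lost in 1 further alternative each, with genes filtered at a mean of 1 RPKM and with the 4 iPSC lines as 1 group. The later placental proteases Ctsj and Ctsq were at or below 0.113 RPKM in all libraries. Summed over the list, RPKM were 363 in ESC, 161, 164 and 163 in control iPSC 3, control iPSC 7 and PC iPSC 13, and 252 in PC iPSC 5. Against MEF 14 of the 21 rose and 4 fell, where 36.5% of all genes rose and 31.6% fell.

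Within the iPSC lines, 18 of the 24 genes of this list were highest in PC iPSC 5 and 2 were lowest there. The 18 include Ctsj and Synb, on 3 and 7 reads in that line. PC iPSC 5 was also highest for 9 of 13 fibroblast markers, 6 of 10 epithelial genes and 7 of 16 Hippo pathway genes. It was highest for 4 of 12 pluripotency markers and 2 of 15 FGF ligands and feedback genes. The share over all genes was not counted. The genes given next were picked after their values were seen. Krt18, a keratin of simple epithelia and trophectoderm, was at 42.7 RPKM in that line, near the 47.5 RPKM of ESC, and at 11.8 to 15.2 RPKM in the other 3. The homeobox genes Rhox6 and Rhox9, known from placenta and germ cells, were at 8.84 and 6.67 RPKM there, 10.1 and 8.81 RPKM in ESC, and at most 2.26 and 1.57 RPKM in the other lines. In contrast, Sox15, a factor of trophoblast and muscle precursors, and Phlda2 were lowest in PC iPSC 5, at 24.5 and 13.4 RPKM. For Phlda2 that was nearly level with PC iPSC 13, at 13.5 RPKM. Of the 8 members, Tfap2c, Fgfr2, Gata3 and Hand1 were highest among the iPSC lines in PC iPSC 5, with the intervals of Fgfr2 and Gata3 overlapping the next line. Cdx2 was lowest there, and Elf5, Eomes and Gata2 lay between other lines.

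Upstream of the trophoblast factors, genes of the Hippo pathway were examined. Of 16 tested, 2 rose and 1 fell against ESC, with a median of 0.05, where 4.71% of all genes rose and 5.71% fell. Tead4, the factor that starts Cdx2 in the embryo, rose from 5.96 RPKM in ESC to between 10.6 and 14.0 RPKM (log2 fold change 0.93, SE 0.21, adjusted p = 0.0385). That call was lost without PC iPSC 5, with an adjusted p of 0.0519. Lats2, a kinase that keeps Yap1 out of the nucleus, rose by 1.27 (SE 0.18, adjusted p = 0.0150) and Nf2, an upstream activator of that kinase, fell by 0.82 (SE 0.17, adjusted p = 0.0327). Nf2 and Cldn7 lie on chromosome 11, whose genes stood higher as a whole in ESC, and the part of that chromosome in either difference was not tested. Lats2 is also high in MEF, at 37.9 RPKM. Among 10 epithelial genes 5 fell and none rose, against 5.71% and 4.71% of all genes, with a median of -0.78. Besides Esrp1 they included the adhesion molecule Epcam, at 123 RPKM in ESC and 28.0 to 34.4 RPKM in iPSC (log2 fold change -2.03, SE 0.14, adjusted p = 0.00305), and the tight-junction proteins Cldn4 and Cldn7. Among 12 pluripotency markers 3 rose, Klf4, Tbx3 and Zfp42, and none fell, against 4.71% and 5.71% of all genes. The median of these markers was -0.19, and 5 of the 12 were positive. Klf4 is also high in MEF, at 124 RPKM. None of 10 blood and endothelial markers was called against ESC, where 10.4% of all genes were.

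The genes whose profile over the 6 libraries came nearest to each member were found among 15105 others by the distance between centred values of log2(RPKM + 0.5). For Tfap2c they were Gstm3, Cldn7 and Ubd, with Pearson r of 0.989 to 0.999 over the 6 libraries. Gstm3, a glutathione transferase, was at 23.6 RPKM in ESC, 3.61 to 8.43 RPKM in iPSC and had no read in MEF. For Fgfr2 they were Egln3, Lfng and Map2, with r of 0.968 to 0.987. Egln3, an oxygen-sensing prolyl hydroxylase, was at 35.7 RPKM in MEF, 20.1 RPKM in ESC and 3.15 to 4.94 RPKM in iPSC. Lfng, a modifier of Notch receptors, was at 4.07, 3.36 and 0.192 to 0.567 RPKM in the same order. For Eomes they were Fbxl19, Zcchc3 and Lmtk2, for Gata3 Fbxo4, Ube2j1 and Dpep1, and for Gata2 Apobec1, Stat3 and Oplah. Those of Elf5, Adgre5, Dnaja2 and Hacl1, rest on a profile of 2 to 12 reads. The 3 nearest to Hand1, Dhrs7b, Alox12 and Rasl10b, are all on its own chromosome 11, as were 11 of its 20 nearest, where 8.24% of the compared genes lie. Dhrs7b was at 35.03 RPKM in PC iPSC 5, 26.3 RPKM in ESC, 19.8 to 22.7 RPKM in the other iPSC lines and 9.80 RPKM in MEF. With 6 libraries in 4 kinds of sample, such r values largely restate which group is high, and 724 genes had an r above 0.95 with Tfap2c.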

How the data were processed

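The 6 mouse RNA-seq libraries were used as the authors deposited them. Per the file headers, the authors' gene table holds uniquely assigned read counts, RPKM and a coverage value for the share of each gene covered by reads. The deposited RPKM followed from count, length and library total within a relative difference of 2.4e-14. The submitters' processing notes name CASAVA 1.8.2 and mm10. The sources used here do not give the aligner, counter, annotation or strand setting.

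The test of the counts was that of edgeR 4.0.16, run in R 4.3.3 (TMM scaling, default expression filter, 16435 genes, quasi-likelihood test, Benjamini-Hochberg adjustment, threshold 0.05). The model had 4 group means over 6 libraries, with 2 residual degrees of freedom from the 4 iPSC lines. ESC and MEF, with 1 library each, were assumed to vary like them. The iPSC value is the mean of the control and PC groups. Intervals on single libraries are exact Poisson 95% intervals and, like the floor of 3 reads, cover counting error only. Alternatives used limma 3.58.1, DESeq2 1.42.0, other scalings and filters, halved counts, and each line left out. The test was also run on simulated data. There ESC and MEF were made to vary like the iPSC lines, so that run could not check the assumption made for them.

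Gene positions and upstream sequences are from RefSeq on GRCm38. Members, 9 gene lists (130 genes, 125 in the table) and tests were chosen with earlier results of these data known. Named list genes were up to 4 called genes per list with the largest change from ESC, relatives at 1 RPKM or more, Tead4, Fgf4, Esrp1 and the 3 nearest profiles per member, with predicted gene names left out. Fibroblast markers are described only as a group. Per-library tables held the same counts.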

Additional observations from a re-analysis of the deposited data

Results flagged for a closer look

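Eomes stood out in 1 of the 4 iPSC lines. Control iPSC 3 was at 0.835 RPKM and the other 3 lines were between 0.526 and 0.571 RPKM, so that the gap to the next line was 0.855 of the whole range, above the 95% critical value of 0.829 for 4 samples. Chance flags about 1 in 20 groups, and the levels of 8 genes were looked at. The 95% counting interval of control iPSC 3, from 0.668 to 1.03 RPKM, overlapped that of PC iPSC 5, from 0.434 to 0.736 RPKM.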

How the results depend on the processing

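The count of members called against ESC was 2 under every edgeR setting with all lines and under DESeq2, and 0 with limma on log2(RPKM + 0.5) and on log2(RPKM + 0.1); the cause was not tested. Leaving out 1 line at a time gave 2 to 3 members called against ESC, 6 to 6 against MEF and 0 to 0 between PC and control iPSC. Over all genes, 1713 were called against ESC, but 2873 without control iPSC 3, 2734 without control iPSC 7 and 3 by limma; between PC and control iPSC 309 were called without control iPSC 7, a fit in which the lone control line is assumed to vary like the PC lines. Signs changed for differences that had not passed the test. Hand1 against ESC was 0.0081 with the 4 iPSC lines as 1 group, and -0.38 to 0.040 when 1 line was left out. Between PC and control iPSC with 1 line left out, Fgfr2 ran from -0.36 to 0.37 and Tfap2c from -0.27 to 0.80, both negative without PC iPSC 5. Eomes ran from -0.58 to 0.077, positive without control iPSC 3, and Gata2 from -1.02 to 0.14, positive without PC iPSC 13. Under stricter filters Elf5, Eomes and Hand1 had no value, and Hand1 none without chromosome 11. No paired analysis was made because the labels give no pairing between the groups. For genes under 1 RPKM the median 95% interval spanned a factor of 3.65 on either side of the difference from ESC, so smaller differences of such genes were mostly not detectable at this depth.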
